A study of Homo sapiens with 12 samples.

Results

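The replication-dependent histone genes were taken as every row of the expression table whose symbol begins with HIST1H, HIST2H, HIST3H or HIST4H. They numbered 73 of 23686 genes and fell into 6 H1, 18 H2A, 20 H2B, 14 H3 and 15 H4 rows. Changes were tested for the 42 rows with at least 1 TPM in at least 2 of the 12 libraries, where TPM is a transcript level scaled to gene length and to the library's total. Those 42 were 2 H1, 11 H2A, 12 H2B, 7 H3 and 10 H4 rows. Of the others, 16 were at 0 in every library and 15 were above 0 but under the filter.

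Expression had been measured by RNA sequencing in HCT116, a line from a colon cancer, and in MDA-MB-231, a line from a breast cancer, after 3 treatments of each line. The groups were anti-Hsp60N with 100 µM hydrogen peroxide (H2O2), IgG with 100 µM H2O2 (called H2O2 here) and IgG alone, with 2 libraries each. The H2O2 exposure lasted 8 h, and every culture had 10% fetal bovine serum. HCT116 was grown in McCoy's medium and MDA-MB-231 in DMEM, so line and medium cannot be told apart, and no group had the antibody without H2O2. The labels do not say whether the replicates of a group were separate cultures, so p-values measure only the spread between these libraries, which may be technical.

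Replication-dependent histone genes supply the histones that package newly copied DNA, and they are switched on together in S phase. Their mRNAs are known for lacking a poly(A) tail and ending instead in a short stem-loop, which binds SLBP, the stem-loop binding protein that directs their processing and translation. Some of these genes also give longer, polyadenylated mRNAs. H2A, H2B, H3 and H4 form the core of the nucleosome, and H1 binds the DNA between nucleosomes. The labels name total RNA as the starting molecule, and no source used here says whether poly(A) RNA was selected.

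The stem-loop is shown for members whose levels are described below, because it is the feature that sets these mRNAs apart. The letters GGNNCTTTTNAGNGCC, a 6-base stem on each side of a 4-base loop, were searched on the transcript strand of the GENCODE 29 models, in which 73 of 73 members were found. The 16 bases are in capitals, with 5 bases of flank on each side.
HIST1H2BD: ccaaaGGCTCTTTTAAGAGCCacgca
HIST2H2AA3: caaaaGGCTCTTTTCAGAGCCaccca
HIST3H2A: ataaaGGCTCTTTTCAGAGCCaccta
HIST1H3H: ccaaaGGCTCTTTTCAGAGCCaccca
HIST1H4H: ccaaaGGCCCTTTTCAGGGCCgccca
HIST2H4A: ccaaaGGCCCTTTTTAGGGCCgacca
The motif stood in a model of 32 members, namely 7 H2A, 12 H2B, 5 H3, 8 H4 and 0 H1 rows, and in 11 of 57043 other genes (0.0193%). Many models of the other members cover the coding part alone, so no match there says only that the letters are not in the model. The form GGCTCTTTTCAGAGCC was shared by 17 members of H2A, H2B and H3. H4 members carried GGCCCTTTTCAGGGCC in 5 cases and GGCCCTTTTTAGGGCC in 3, so that the stems of H4 differed in letters from those of the other classes. In 23 of the 32, a model ran over 100 bases past the stem-loop, and 17 of these 23 passed the filter, as did 7 of the 9 without such a model.

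The 250 bases before the start are shown for the most abundant H1 and H2B gene and for 3 genes listed at 0 under IgG in 1 line (RefSeq, GRCh38.p14; 65 of 73 members were matched). HIST1H1C lies at chr6:26056471-26056720 on the minus strand, HIST1H2BK at chr6:27146856-27147105 on the minus strand, HIST3H2A at chr1:228457874-228458123 on the minus strand, HIST1H3C at chr6:26045134-26045383 on the plus strand and HIST1H4H at chr6:26285535-26285784 on the minus strand. The files use hg19, another build, and these positions serve for the sequences alone. Capitals mark the motifs named after the sequences, on either strand.
HIST1H1C: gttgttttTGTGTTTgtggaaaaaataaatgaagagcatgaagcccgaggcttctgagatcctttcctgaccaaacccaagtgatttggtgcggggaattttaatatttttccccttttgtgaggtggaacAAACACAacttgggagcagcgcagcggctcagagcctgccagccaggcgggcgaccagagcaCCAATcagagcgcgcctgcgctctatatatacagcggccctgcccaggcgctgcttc
HIST1H2BK: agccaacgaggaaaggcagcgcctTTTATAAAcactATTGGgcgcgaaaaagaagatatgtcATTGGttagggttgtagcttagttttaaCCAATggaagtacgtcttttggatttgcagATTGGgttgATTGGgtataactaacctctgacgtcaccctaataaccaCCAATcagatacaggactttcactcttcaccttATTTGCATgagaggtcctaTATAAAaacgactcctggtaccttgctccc
HIST3H2A: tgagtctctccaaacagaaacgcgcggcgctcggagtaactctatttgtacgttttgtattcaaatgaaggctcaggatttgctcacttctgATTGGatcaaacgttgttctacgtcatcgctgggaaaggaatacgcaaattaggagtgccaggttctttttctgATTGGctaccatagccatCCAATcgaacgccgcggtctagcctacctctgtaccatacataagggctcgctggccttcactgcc
HIST1H3C: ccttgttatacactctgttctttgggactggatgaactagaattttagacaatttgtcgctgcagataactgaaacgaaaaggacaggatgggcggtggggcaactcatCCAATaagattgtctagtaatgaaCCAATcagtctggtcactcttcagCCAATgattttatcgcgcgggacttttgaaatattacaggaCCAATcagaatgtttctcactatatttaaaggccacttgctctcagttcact
HIST1H4H: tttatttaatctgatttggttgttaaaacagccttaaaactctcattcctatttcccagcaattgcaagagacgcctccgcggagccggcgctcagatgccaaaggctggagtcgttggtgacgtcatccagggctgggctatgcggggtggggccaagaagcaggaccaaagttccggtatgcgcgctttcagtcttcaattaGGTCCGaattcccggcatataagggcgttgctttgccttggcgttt
The motifs followed histone class. AAACACA, the AC box known from H1 genes, stood in 6 of 6 H1 windows and in 0 of the 16 H2A, 18 H2B, 12 H3 and 13 H4 windows, against 4.82% of 35116 promoters of the same length. ATTTGCAT, the octamer that POU2F1 binds, stood in 11 of 16 H2A and 14 of 18 H2B windows and in none of the H1, H3 and H4 windows, against 1.63% of all promoters. GGTCCG, the core letters of the site of HINFP, a regulator of H4 genes, stood in 12 of 13 H4 windows and in 15 of 65 in all, against 9.43%. CCAAT stood in every H1, H2A, H2B and H3 window and in 3 of 13 H4 windows, against 32%, and TATAAA in 43 of 65, against 10.7%. Windows of genes that lie head to head can share bases, and a match is a run of letters, not a site shown to be used.

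A few genes held a large share of the histone signal. HIST1H2BK, an H2B gene, had 23.2 to 29.5 TPM in the 6 HCT116 libraries, with a mean of 25.6 TPM, and 171 to 196 TPM in the 6 MDA-MB-231 libraries, with a mean of 182 TPM. It made up 21.2% to 26.2% of the summed histone TPM in HCT116 and 39.7% to 42.9% in MDA-MB-231. HIST1H1C, the leading H1 gene, ranged over 8.36 to 11.5 TPM in HCT116, against 78.9 to 105 TPM in MDA-MB-231. HIST1H2BD, another H2B gene, ranged over 7.77 to 10.8 TPM in HCT116, against 36.5 to 47.1 TPM in MDA-MB-231. HIST2H2AA3 and HIST2H2AA4, near-identical H2A copies with the same value in every library, had 4.50 to 6.41 TPM each in HCT116, against 15.5 to 22.3 TPM each in MDA-MB-231. These 5 rows held 47.8% to 54.9% of the histone TPM in HCT116 and 76.6% to 82.1% in MDA-MB-231.

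By level in MDA-MB-231, HIST1H2BK, HIST1H1C, HIST1H2BD and HIST2H2AA3 followed each other without overlap between neighbours, whereas HIST1H2AC, at 13.6 to 21.7 TPM, overlapped with HIST2H2AA3. In HCT116, HIST1H2BK stood above the rest, and HIST1H1C and HIST1H2BD overlapped. The H3 and H4 genes were low in both lines. HIST1H3H, HIST1H3C and HIST1H3B had the highest mean TPM of the H3 genes and did not exceed 3.77 TPM in any library, and HIST2H4A and HIST2H4B, with identical values, led the H4 genes at 1.39 to 6.27 TPM each. HIST1H1T, known as the testis H1, came next after HIST1H1C and HIST1H1E among the H1 genes and reached 0.18 TPM at most. HIST2H3A and HIST2H3C were the other pair with identical values, and how reads were divided within such pairs is uncertain.

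**Figure D1:**
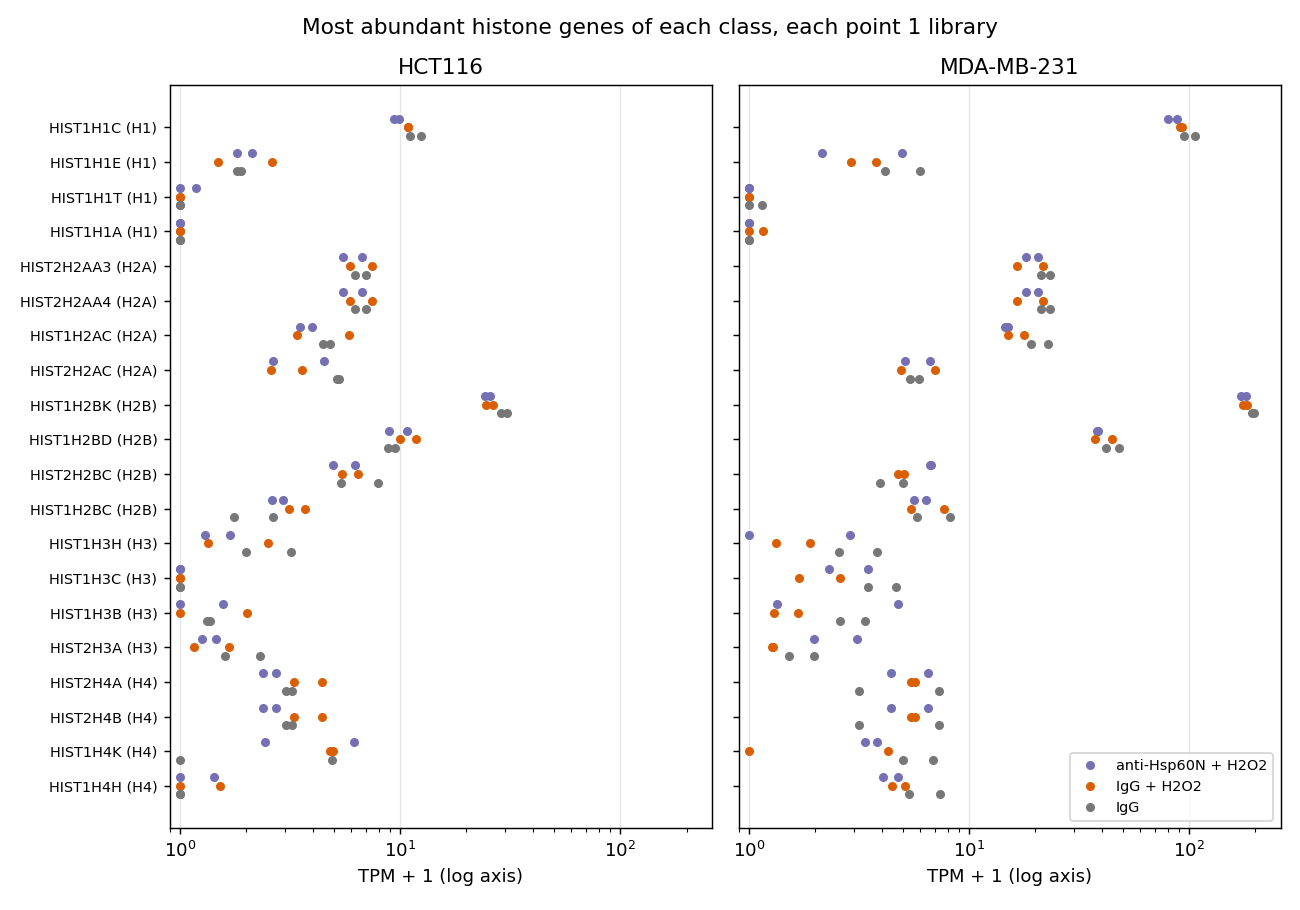
TPM + 1 on a log axis for the 4 histone genes of highest mean TPM in each class, with HCT116 on the left and MDA-MB-231 on the right; each point is 1 library and colours give the treatment. HIST1H2BK lies at 171 to 196 TPM in MDA-MB-231, and the H3 genes lie near the left edge in both lines.

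Of the 42 rows tested, 9 had exactly 2 libraries at 1 TPM or more. These were HIST1H2AI, HIST1H2BL, HIST1H3E, HIST1H4A, HIST2H3A, HIST2H3C, HIST2H3D, HIST3H2BB and HIST4H4, whose highest values ran from 1.26 TPM for HIST2H3D to 2.09 TPM for HIST2H3A. HIST1H3D, the row just outside, reached 1.06 TPM in 1 library. By library count, 22 rows passed within both lines, 11 within MDA-MB-231 alone, 5 within HCT116 alone and 4 through 1 library in each line. For rows that passed within 1 line alone the filter itself favoured a difference between the lines, without forcing one in mean level. HIST1H4A passed within HCT116 alone and averaged 0.553 TPM there, against 0.547 TPM in MDA-MB-231.

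A library had 12411 to 12653 genes at 1 TPM or more. Epithelial markers summed to 6104 to 6390 TPM in HCT116, against 1883 to 2128 TPM in MDA-MB-231. Under IgG, 7 of the 8 were higher in HCT116. CLDN4 ran the other way, at 70.5 to 94.2 TPM over the HCT116 libraries, against 105 to 122 TPM in MDA-MB-231. Mesenchymal markers summed to 42.9 to 60.2 TPM in HCT116, against 2674 to 3061 TPM in MDA-MB-231. Of the immune markers, PTPRC and CD3E were at 0.08 TPM or less in every library, and CD68 had 20.3 to 25.3 TPM in HCT116, against 183 to 204 TPM in MDA-MB-231. Of 23 RNAs known to lack a poly(A) tail, 14 were in the table and 3 of these were at 0 throughout. Their summed TPM ran from 24.7 to 92.3 in a library.

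The lines under IgG were compared first. Of the 42 tested histone genes, 29 had a log2 fold change below 0 in HCT116 against MDA-MB-231, and 13 had one above 0. The 73 rows summed to 112 and 120 TPM in HCT116, against 494 and 474 TPM in MDA-MB-231, a ratio of 0.240. These 73 rows, which leave out the replication-independent histones, thus made up 0.0112% and 0.0120% of the TPM in HCT116 and 0.0494% and 0.0474% in MDA-MB-231. The ratio was 0.112 for H1, 0.189 for H2B, 0.455 for H2A, 0.545 for H4 and 0.613 for H3. Without the 5 most abundant rows the sums averaged 57.3 ± 4.79 TPM in HCT116, against 104 ± 2.37 TPM in MDA-MB-231 (SD, n = 2 each), a ratio of 0.553.

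Of 42 members tested with limma across all genes, 5 were higher and 15 lower in HCT116 than in MDA-MB-231 at an adjusted p under 0.05, beside 45.5% higher and 37.3% lower of all 13956 genes tested (82.8% in all). The lower calls were thus near the share of all genes, and the higher calls were under it. The 15 count HIST2H2AA3 and HIST2H2AA4, which share their values, as 2. The members' median log2 fold change, on log2(TPM + 1), was -0.62, against 0.11 for all genes. After median-of-ratios scaling, which moved the median of all genes to -0.01, the counts were 5 higher and 17 lower. Among the 22 members that passed the filter within both lines, 1 was higher and 10 were lower.

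The H1 genes HIST1H1C and HIST1H1E were both lower in HCT116. HIST1H1C had 10.1 and 11.5 TPM in HCT116, against 105 and 94.1 TPM in MDA-MB-231, a log2 fold change of -3.10 (SE 0.078, adjusted p = 2.05e-11). HIST1H1E had 0.81 and 0.89 TPM in HCT116, against 5.01 and 3.14 TPM in MDA-MB-231 (-1.43, adjusted p = 0.00329). For both genes every HCT116 library lay under every MDA-MB-231 library of the comparison.

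Of 12 tested H2B members, 10 passed the threshold, beside 82.8% of all genes. Of these 10, HIST1H2BO, HIST2H2BA and HIST2H2BE passed the filter within MDA-MB-231 alone and HIST3H2BB within HCT116 alone. For these the filter itself favoured a difference between the lines. HIST1H2BK had 29.5 and 27.7 TPM in HCT116, against 196 and 192 TPM in MDA-MB-231, a log2 fold change of -2.72 (SE 0.056, adjusted p = 3.9e-12). HIST1H2BD had 8.48 and 7.77 TPM in HCT116, against 47.1 and 41.1 TPM in MDA-MB-231 (-2.30, SE 0.12, adjusted p = 8.25e-09). HIST1H2BC, HIST1H2BJ, HIST1H2BN, HIST1H2BO and HIST2H2BE were also lower in HCT116, at log2 fold changes of -1.67, -1.29, -1.45, -1.31 and -1.13. HIST2H2BA, annotated as a transcribed pseudogene, was listed at 0 in all 6 HCT116 libraries and had 2.96 and 5.68 TPM in MDA-MB-231 under IgG. The call for HIST1H2BN was lost without the second IgG library of either line (adjusted p = 0.0561 without that of HCT116 and 0.0649 without that of MDA-MB-231).

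HIST2H2BC and HIST3H2BB were the H2B members that were higher in HCT116. HIST2H2BC, annotated as a transcribed pseudogene, had 4.37 and 6.93 TPM in HCT116, against 3.99 and 2.95 TPM in MDA-MB-231 (0.56, SE 0.18, adjusted p = 0.0154). HIST3H2BB had 0.36 and 1.57 TPM in HCT116 and was listed at 0 in all 6 MDA-MB-231 libraries. Both calls were lost without the second HCT116 IgG library (adjusted p = 0.177 for HIST2H2BC and 0.150 for HIST3H2BB) and without the second MDA-MB-231 IgG library (0.134 and 0.0531). That for HIST3H2BB was also lost without the first MDA-MB-231 IgG library (0.0534).

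Among H2A genes, HIST1H2AC had 3.47 and 3.80 TPM in HCT116, against 18.2 and 21.7 TPM in MDA-MB-231 (-2.17, SE 0.20, adjusted p = 1.34e-06). HIST2H2AA3 and HIST2H2AA4 had 5.24 and 6.01 TPM each in HCT116, against 20.2 and 22.3 TPM in MDA-MB-231 (-1.75, adjusted p = 7.23e-07). HIST3H2A, the H2A gene of the small cluster on chromosome 1, ran the other way. This gene passed the filter within HCT116 alone, so that the filter itself favoured a difference between the lines. It was listed at 0 in all 6 MDA-MB-231 libraries, and the HCT116 libraries had 3.98 and 8.48 TPM under the antibody with H2O2, 9.71 and 4.85 TPM under H2O2 and 6.80 and 8.12 TPM under IgG. Its HCT116 values overlapped with those of HIST1H1C in that line.

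The H3 and H4 calls all involved a group listed at 0, and each of these genes passed the filter within 1 line alone. For them the filter itself favoured a difference between the lines. HIST1H3C was at 0 in the 6 HCT116 libraries and at 2.48 and 3.63 TPM in MDA-MB-231 under IgG, and HIST1H4H was at 0 in both HCT116 IgG libraries and at 6.39 and 4.31 TPM in MDA-MB-231. HIST1H3E, at 1.04 and 0.76 TPM in HCT116, and HIST1H4E, at 0.49 and 2.69 TPM, were listed at 0 in all 6 MDA-MB-231 libraries. The HIST1H4E call was lost without the second HCT116 IgG library (adjusted p = 0.122). Over the whole set, 9 of the 73 rows were listed at 0 in the 6 MDA-MB-231 libraries and above 0 in HCT116, and 6 were the reverse. No share of all genes was counted for this. Some of these rows were under the filter, such as HIST1H4D, at 0.53 TPM at most in HCT116, and HIST1H1A, at 0.16 TPM at most in MDA-MB-231. Such values do not show expression in 1 line alone.

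**Figure D2:**
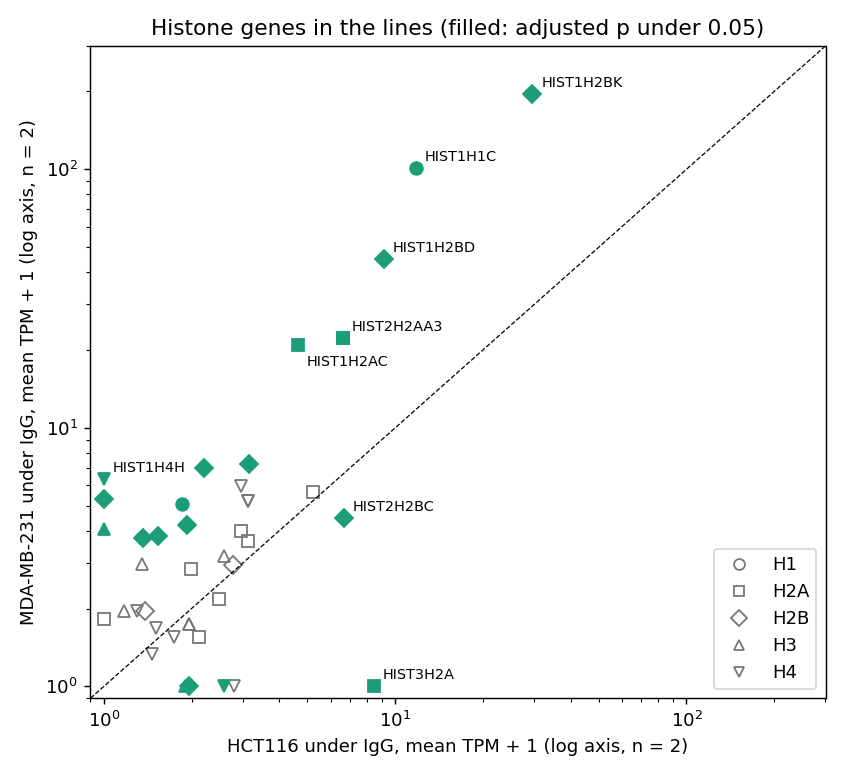
Mean TPM + 1 under IgG of the 42 tested histone genes, in HCT116 (horizontal log axis) and MDA-MB-231 (vertical log axis), n = 2 libraries each; marker shapes give the class, filled markers an adjusted p under 0.05, and the dashed line equal levels. HIST1H2BK, HIST1H1C and HIST1H2BD lie far above the line, and HIST3H2A lies at the bottom, listed at 0 in MDA-MB-231.

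Genes of DNA replication were mostly higher in HCT116. Of 28 on the list, 25 were higher and 1 was lower in HCT116, with a median log2 fold change of 0.97, and they summed to 4361 and 4485 TPM in HCT116, against 2192 and 2247 TPM in MDA-MB-231. MCM2, MCM6 and GINS2, parts of the replicative helicase, were higher by 1.92, 1.91 and 1.65 on the log2 scale. Of 20 genes for histone mRNA processing, 12 were higher and 3 lower in HCT116, beside 45.5% higher and 37.3% lower of all genes. SLBP had 170 ± 2.23 TPM in HCT116, against 110 ± 1.99 TPM in MDA-MB-231 (SD, n = 2 each; log2 fold change 0.63, adjusted p = 7.35e-07), and ERI1, an exonuclease that trims the stem-loop end, and CPSF3, the endonuclease that cuts histone pre-mRNA, were higher by 1.14 and 0.97.

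Of 12 regulators of histone gene transcription, 7 were higher and 2 lower in HCT116, among them CCNE1, a cyclin that activates CDK2, which was higher by 1.21, POU2F1, which was higher by 1.25, and E2F1, which fell by 1.22 on the log2 scale relative to MDA-MB-231. Histone chaperones were higher in 20 and lower in 3 of 24, beside the same 45.5% and 37.3% of all genes, and the call of smallest p was CHAF1B (1.30), a subunit of the CAF-1 complex that loads new H3 and H4. The replication-independent histones split into 4 higher and 5 lower of 11. Of these, H3F3B, which encodes H3.3, was higher by 1.08, H2AFJ was lower at -1.86, and H2AFY2, a macroH2A gene, had 51.9 TPM in HCT116, against 0.125 TPM in MDA-MB-231. Their summed TPM was 3162 and 3292 in HCT116 and 2671 and 2673 in MDA-MB-231, far above the sum of the 73 replication-dependent rows in both lines. In bulk RNA, fewer cells of a kind and less RNA per cell cannot be told apart.

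H2A and H2B genes often lie head to head and share the stretch between their starts. There were 13 such pairs with annotated transcript starts within 1000 bases of each other, 10 of them on chromosome 6, and both genes passed the filter in 9. The partners were far apart in level in some pairs and close in others. HIST1H2AI and HIST1H2BL averaged 0.737 and 0.777 TPM in MDA-MB-231, and HIST2H2AA4 and HIST2H2BC averaged 5.47 and 5.05 TPM in HCT116. HIST1H2AH, the H2A gene opposite HIST1H2BK, averaged 1.15 TPM in HCT116, against 1.32 TPM in MDA-MB-231, where HIST1H2BK averaged 25.6 and 182 TPM. The H2A gene was the higher one in the pair of HIST1H2AC with HIST1H2BC, at 3.34 against 1.80 TPM in HCT116 and 16.4 against 5.51 TPM in MDA-MB-231. The H2B gene was the higher one in the pair of HIST1H2BN with HIST1H2AK, at 0.962 against 0.673 TPM in HCT116 and 1.56 against 0.688 TPM in MDA-MB-231. HIST3H2A and HIST3H2BB, whose starts are 234 bases apart, were both listed at 0 in MDA-MB-231, and averaged 6.99 and 0.798 TPM in HCT116. Without a stated strand setting, reads that overlap both genes of a pair cannot be assigned with certainty.

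**Figure D3:**
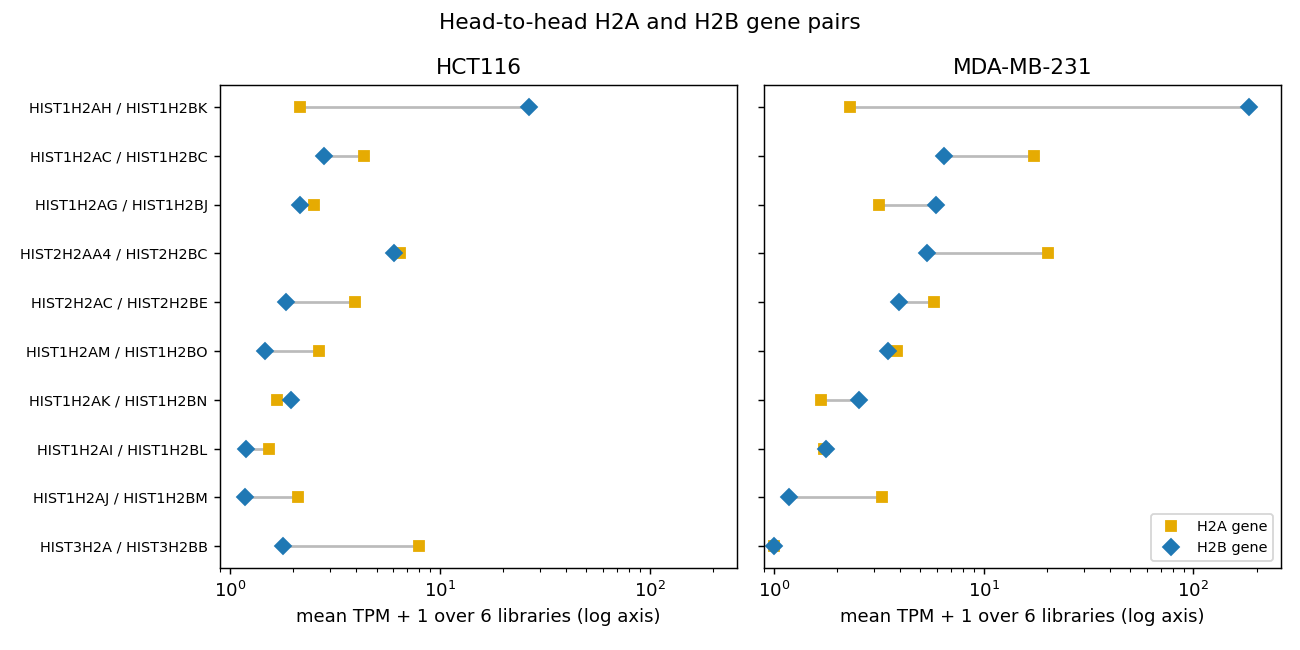
Mean TPM + 1 over the 6 libraries of each line, on a log axis, for the 10 head-to-head pairs with at least 1 gene past the filter; squares are H2A genes, diamonds H2B genes, and a line joins the partners. HIST1H2BK lies far to the right of HIST1H2AH in both lines, and the HIST3H2A pair is listed at 0 in MDA-MB-231.

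In HCT116, H2O2 changed 3 of the 42 members, beside 32.9% of all genes tested. HIST1H2BK and HIST2H2AC fell and HIST1H2BC rose, beside 17.5% and 15.4% of all genes in these directions. The median log2 fold change was -0.11 over the members, of which 25 were below 0, 15 above and 2 at 0, and -0.01 over all genes. The groups did not overlap for 4 members that were higher and 3 that were lower under H2O2, beside 29.1% and 33.6% of all genes.

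HIST1H2BK had 25.3 and 23.6 TPM under H2O2 in HCT116, against 29.5 and 27.7 TPM under IgG, a log2 fold change of -0.22 (SE 0.056, adjusted p = 0.0130). HIST2H2AC, an H2A gene of the cluster on chromosome 1, had 1.58 and 2.56 TPM under H2O2 and 4.18 and 4.26 TPM under IgG (-0.78, SE 0.25, adjusted p = 0.0356). HIST1H2BC had 2.69 and 2.12 TPM under H2O2 and 0.76 and 1.65 TPM under IgG (0.65, SE 0.23, adjusted p = 0.0472). In each case both H2O2 libraries lay on the same side of both IgG libraries.

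Each of these calls rested on single libraries. The call for HIST1H2BK was lost without the first IgG library (adjusted p = 0.0714) or the second H2O2 library (0.0968) of HCT116. That for HIST2H2AC was lost without either HCT116 IgG library (0.101 and 0.116), the first HCT116 H2O2 library (0.218) or either MDA-MB-231 IgG library (0.0540 each). That for HIST1H2BC was lost without the first HCT116 IgG library (0.304), either HCT116 H2O2 library (0.210 and 0.0804), either HCT116 antibody library (0.0612 each) or either MDA-MB-231 antibody library (0.0593 and 0.0592). With each line fitted alone none of the 3 held (adjusted p = 0.0696 for HIST1H2BK, 0.138 for HIST2H2AC and 0.107 for HIST1H2BC), and with no filter on low values HIST2H2AC (0.0790) and HIST1H2BC (0.0961) did not. The count was 1 without the first HCT116 IgG library and 5 without the first HCT116 H2O2 library.

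The summed histone TPM in HCT116 was 119 and 98.6 under H2O2 and 112 and 120 under IgG. The ratio of the means was 0.939, the groups overlapped, and without the second H2O2 library the ratio was 1.03. HIST1H1C, at 9.84 and 9.86 TPM under H2O2 and 10.1 and 11.5 TPM under IgG, and HIST1H2BD, at 8.94 and 10.8 TPM under H2O2 and 8.48 and 7.77 TPM under IgG, did not pass the test (adjusted p = 0.290 and 0.137). The 2 genes lay on opposite sides of their IgG libraries.

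In MDA-MB-231, 0 of the 42 members passed the test under H2O2, beside 2.66% of all genes. An unadjusted p under 0.05 (limma) was found for 4, and no share of all genes was counted at that level. The direction of the values was mostly downward: the median log2 fold change was -0.14 over the members, with 27 below 0, 11 above and 4 at 0, and 0.03 over all genes. Both H2O2 libraries lay under both IgG libraries for 17 members and above them for 1, beside 17.3% and 30.4% of all genes. The 17 count HIST2H3A and HIST2H3C, which share their values, as 2.

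The summed histone TPM in MDA-MB-231 was 428 and 423 under H2O2 and 494 and 474 under IgG, a ratio of 0.879. The most abundant genes lay slightly under their IgG values. HIST1H2BK had 175 and 181 TPM under H2O2 and 196 and 192 TPM under IgG (-0.12, SE 0.056, adjusted p = 0.304). HIST1H1C had 91.3 and 89.4 TPM under H2O2 and 105 and 94.1 TPM under IgG (-0.14, SE 0.078, adjusted p = 0.413). HIST1H2BD had 43.7 and 36.5 TPM under H2O2 and 47.1 and 41.1 TPM under IgG, and these overlapped.

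Of the 5 classes, H3 had the lowest ratio of H2O2 to IgG in MDA-MB-231. The 14 H3 rows summed to 8.15 and 10.2 TPM under the antibody with H2O2, 3.64 and 2.26 TPM under H2O2 and 9.25 and 10.98 TPM under IgG. Both H2O2 sums lay under the other 4, at 0.292 of IgG, while the ratio of H2O2 to IgG was 0.855 to 0.944 for the other 4 classes. In HCT116 the H3 rows summed to 2.28 and 4.60 TPM under the antibody with H2O2, 3.43 and 4.43 TPM under H2O2 and 5.23 and 7.18 TPM under IgG. These sums rest on rows of a few TPM, and no test is given for them.

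Of single H3 genes in MDA-MB-231, HIST1H3C had 2.48 and 1.31 TPM under the antibody with H2O2, 1.58 and 0.69 TPM under H2O2 and 2.48 and 3.63 TPM under IgG (H2O2 against IgG -0.94, SE 0.22, adjusted p = 0.0541). It passed the threshold after median-of-ratios scaling (adjusted p = 0.0457), without the first H2O2 library (0.0416) and without either antibody library (0.0390 and 0.0385), all of MDA-MB-231. HIST1H3H had 0 and 1.88 TPM under the antibody with H2O2, 0.90 and 0.33 TPM under H2O2 and 1.57 and 2.83 TPM under IgG (adjusted p = 0.316). HIST1H3B had 0.34 and 3.77 TPM under the antibody with H2O2, 0.30 and 0.66 TPM under H2O2 and 2.37 and 1.58 TPM under IgG (adjusted p = 0.343). The antibody libraries thus spread widely for both of these genes.

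Among the H4 genes of MDA-MB-231, HIST1H4C was the 1 member with both H2O2 libraries above both IgG libraries, at 1.68 and 1.37 TPM against 1.11 and 0 TPM, and it did not pass (adjusted p = 0.216). Without the first IgG library it did (adjusted p = 0.0494). HIST1H4K had 0 and 3.30 TPM under H2O2 and 4.01 and 5.88 TPM under IgG. HIST2H4A and HIST2H4B had 4.70 and 4.44 TPM each under H2O2, between the 6.27 and 2.15 TPM of IgG.

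The sum of the RNAs known to lack a poly(A) tail was under its IgG values in every MDA-MB-231 library with H2O2. It was 45.3 and 24.7 under the antibody with H2O2, 30.1 and 30.4 under H2O2 and 92.0 and 71.6 TPM under IgG. In HCT116 it was 49.5 and 38.7 under the antibody with H2O2, 83.3 and 29.2 under H2O2 and 46.4 and 92.3 under IgG, which overlapped. Without SNORA51 and SNORA71C, the MDA-MB-231 sums were 45.3 and 24.7 under the antibody with H2O2, 30.1 and 30.4 under H2O2 and 55.5 and 24.4 under IgG, and the groups overlapped. SNORA51, a small nucleolar RNA, was listed at 0 in all 8 libraries with H2O2 and at 21.5 to 28.0 TPM in the 4 IgG libraries. Of the 10 tested, 0 rose and 2 fell under H2O2 in MDA-MB-231 (SNORA51 and SNORA71C), beside 2.66% of all genes in either direction. In HCT116, 1 rose (SCARNA7) and 1 fell (SNORA51), beside 15.4% higher and 17.5% lower of all genes. The part of this in the histone values was not tested.

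The difference between the lines in the H2O2 change passed the test for 1 of 42 members, beside 17.4% of all genes. HIST1H2BN, an H2B gene of low level, had 2.58 and 0.41 TPM under H2O2 and 0.73 and 0 TPM under IgG in HCT116, and 0.33 and 0.36 TPM under H2O2 and 1.72 and 3.77 TPM under IgG in MDA-MB-231. The change in HCT116 minus that in MDA-MB-231 was 2.19 (SE 0.56, adjusted p = 0.0229), while neither change alone passed (adjusted p = 0.158 and 0.0913). The call was lost without the second IgG library of either line (0.0730 for HCT116 and 0.0819 for MDA-MB-231), the first H2O2 library of HCT116 (0.0550) or either H2O2 library of MDA-MB-231 (0.0637 and 0.0647), or with no filter on low values (0.0551). Without HCT116 H2O2 replicate 1 or 2, the MDA-MB-231 change alone passed (0.0332 each), and without the second of them so did the HCT116 change (0.0160).

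**Figure D4:**
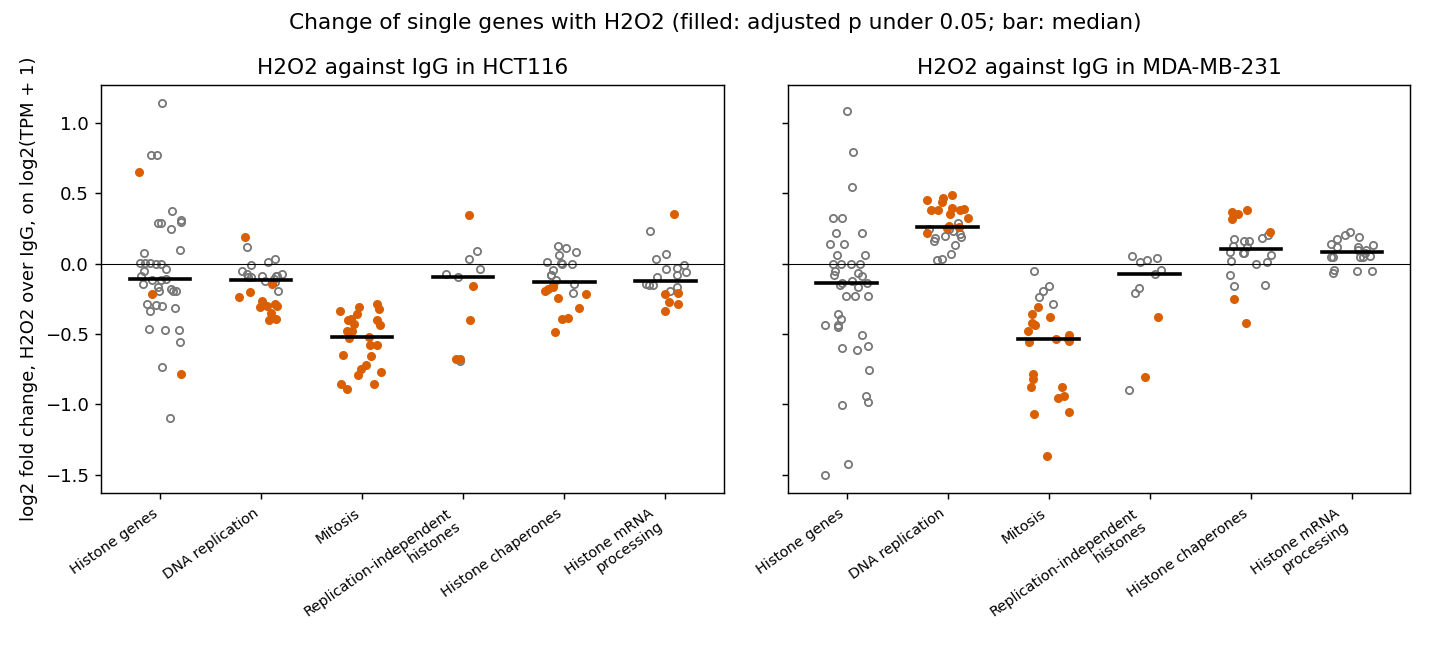
Log2 fold change with H2O2 over IgG, on log2(TPM + 1), of each tested gene of 6 lists in HCT116 (left) and MDA-MB-231 (right); filled points have an adjusted p under 0.05 and bars are medians. Mitosis genes lie at medians of -0.52 and -0.54, DNA replication genes at -0.12 and 0.26, and the histone genes at -0.11 and -0.14.

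Other genes of the cell cycle were set beside the histone genes under H2O2. Of 28 DNA replication genes, 1 rose and 11 fell in HCT116 and 15 rose and 0 fell in MDA-MB-231, and the difference between the lines passed the test for 19, all lower in HCT116. Of all genes, 32.9% passed in HCT116 (15.4% higher and 17.5% lower), 2.66% in MDA-MB-231 and 17.4% for the difference. MCM4, at -0.39, GINS2, at -0.40, and FEN1, at -0.35, fell in HCT116, and MCM2 rose by 0.44, FEN1 by 0.38 and RRM2, a subunit of ribonucleotide reductase, by 0.45 in MDA-MB-231. The DNA replication genes and the histone genes thus had medians of opposite sign in MDA-MB-231, 0.26 and -0.14. Mitosis genes fell in both lines, 25 of 25 in HCT116 and 20 of 25 in MDA-MB-231, with medians of -0.52 and -0.54. PLK1, a mitotic kinase, had 150 TPM under H2O2 and 279 TPM under IgG in HCT116, and 82.4 TPM under H2O2 and 174 TPM under IgG in MDA-MB-231.

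The genes that act on histone mRNA and histone transcription changed in part. In HCT116, 1 of 20 histone mRNA processing genes rose and 5 fell, beside 32.9% of all genes changed, and the calls of smallest p were CSTF2 (-0.34), ZNF473 (0.35) and CPSF2 (-0.22). In MDA-MB-231 0 of 20 passed, beside 2.66%. There were 5 at an unadjusted p under 0.05 (limma), with no share of all genes counted at that level. SLBP had 159 ± 7.57 TPM under H2O2 and 170 ± 2.23 TPM under IgG in HCT116 (adjusted p = 0.191), and 128 ± 2.12 TPM under H2O2 and 110 ± 1.99 TPM under IgG in MDA-MB-231 (adjusted p = 0.0579; SD, n = 2 each). The difference of these changes passed, at -0.33 (adjusted p = 0.0172). Of the 12 transcription regulators, 5 rose and 1 fell in HCT116 and 4 rose and 1 fell in MDA-MB-231. CDKN1A, the inhibitor of cyclin-dependent kinases known as p21, rose by 1.65 in HCT116 and 0.64 in MDA-MB-231, CCNE2 rose by 0.58 and 0.60, and CCNA2 was lower at -0.51 and -0.35.

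Some histone chaperones fell under H2O2 in HCT116. Of 24, 0 rose and 9 fell in HCT116, and 5 rose and 2 fell in MDA-MB-231, and the difference between the lines passed for 11, all lower in HCT116. The shares of all genes were 15.4% higher and 17.5% lower in HCT116, 2.66% in either direction in MDA-MB-231 and 17.4% for the difference. CHAF1B, ASF1B and CHAF1A, which hand new H3 and H4 to DNA, rose by 0.38, 0.36 and 0.35 in MDA-MB-231. HJURP, the chaperone of the centromeric H3 variant, fell in both lines (-0.32 in HCT116 and -0.42 in MDA-MB-231), as did that variant, CENPA (-0.68 and -0.81). Of 11 replication-independent histones, 1 rose and 4 fell in HCT116 and 0 rose and 2 fell in MDA-MB-231. H1F0, the linker histone H1.0 of cells that have stopped dividing, rose in HCT116 (0.34) and fell in MDA-MB-231 (-0.38), a difference of 0.72 (adjusted p = 0.000533). H2AFX, which encodes H2A.X, fell in HCT116 at 171 TPM under H2O2 against 274 TPM under IgG (-0.68).

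Under anti-Hsp60N with H2O2, compared with H2O2, 0 of 42 members passed in either line, beside 0.0215% of all genes in HCT116 and 0.0143% in MDA-MB-231. At an unadjusted p under 0.05 there were 1 in HCT116, HIST1H1C, and 4 in MDA-MB-231, namely HIST1H2BN, HIST2H2BC, HIST2H3A and HIST2H3C (limma). The 4 count HIST2H3A and HIST2H3C, which share their values, as 2. No share of all genes was counted at the unadjusted level. HIST1H1C had 8.36 and 8.89 TPM under the antibody with H2O2 and 9.84 and 9.86 TPM under H2O2 in HCT116 (-0.17, SE 0.078, adjusted p = 0.920). HIST2H2BC had 5.66 and 5.73 TPM under the antibody with H2O2 and 3.73 and 4.05 TPM under H2O2 in MDA-MB-231 (0.45, SE 0.18, adjusted p = 0.332). HIST2H3A had 2.09 and 0.98 TPM under the antibody with H2O2 and 0.27 and 0.29 TPM under H2O2 in MDA-MB-231 (0.95, SE 0.25, adjusted p = 0.258). In each case both libraries of one group lay on the same side of both libraries of the other.

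The summed histone TPM was 89.0 and 108 under the antibody with H2O2 and 119 and 98.6 under H2O2 in HCT116, a ratio of 0.902 with overlapping groups. In MDA-MB-231 it was 423 and 419 under the antibody with H2O2 and 428 and 423 under H2O2, a ratio of 0.990. HIST1H2BK had 179 and 171 TPM under the antibody with H2O2 and 175 and 181 TPM under H2O2 in MDA-MB-231, and 23.2 and 24.5 TPM against 25.3 and 23.6 TPM in HCT116. These overlapped in both lines. The difference between the lines in the antibody change passed for 0 members, beside 0.0287% of all genes at the same adjusted threshold. An unadjusted p under 0.05 (limma) was found for 2 members, and no share of all genes was counted at that level.

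Anti-Hsp60N with H2O2 was also compared with IgG, the same IgG libraries that served for H2O2. In HCT116, 3 of 42 members fell, beside 17.5% of all genes, and 0 rose, beside 16.8% (34.3% in both directions). HIST1H2BK had 23.2 and 24.5 TPM under the antibody with H2O2 and 29.5 and 27.7 TPM under IgG (-0.25, SE 0.056, adjusted p = 0.00586). HIST1H1C had 8.36 and 8.89 TPM under the antibody with H2O2 and 10.1 and 11.5 TPM under IgG (-0.29, SE 0.078, adjusted p = 0.0156). HIST1H2BJ, an H2B gene, had 0.56 and 0.33 TPM under the antibody with H2O2 and 3.24 and 1.07 TPM under IgG (-1.04, SE 0.30, adjusted p = 0.0205).

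None of these 3 calls held without the first HCT116 antibody library (adjusted p = 0.0506, 0.0960 and 0.0528 for HIST1H2BK, HIST1H1C and HIST1H2BJ), which left a count of 0. HIST1H1C was also lost without the second HCT116 IgG library (0.112), and HIST1H2BJ without the first HCT116 IgG library (0.150) or the second HCT116 antibody library (0.112). With each line fitted alone HIST1H2BK held (0.0491), and HIST1H1C (0.0682) and HIST1H2BJ (0.159) did not. With no filter HIST1H2BJ did not (0.0513). In MDA-MB-231, 0 of 42 members passed, beside 3.4% of all genes. There were 7 members at an unadjusted p under 0.05 (limma), with no share of all genes counted at that level. The summed histone TPM was 0.847 of that under IgG in HCT116 and 0.870 of it in MDA-MB-231.

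**Figure D5:**
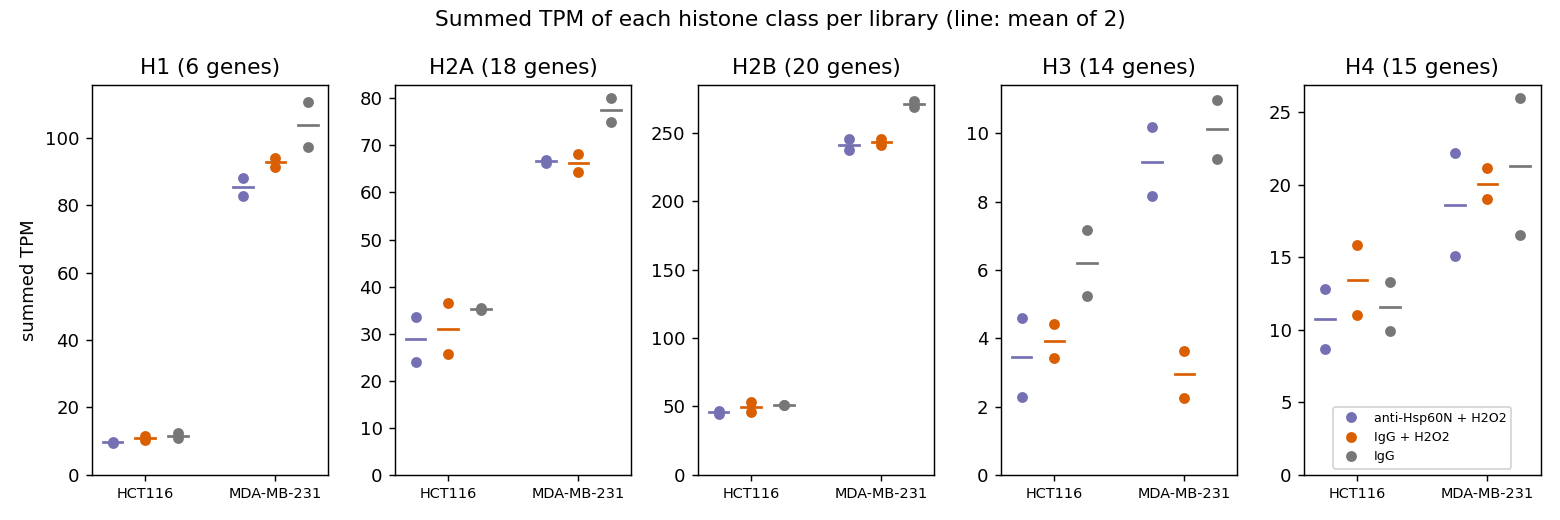
Summed TPM of the rows of each histone class, with HCT116 left of MDA-MB-231 and, within a line, the antibody with H2O2, H2O2 and IgG from left to right; points are libraries, short lines the means of 2, and each panel has its own axis from 0. The H1 and H2B sums are far lower in HCT116, and the H3 sums of MDA-MB-231 under H2O2, 3.64 and 2.26 TPM, lie under those of the other groups of that line.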

How the data were processed

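The authors' deposited values were TPM per gene, given to 2 decimals, in 1 table of 12 libraries, and 0 columns were left unmatched. Per the submitters' processing notes, bcl2fastq 2.20, STAR, RSEM and the build hg19 were used. Versions of STAR and RSEM, annotation, strand setting and RNA selection are not stated there or in the labels. TPM keeps no read depth, so the depth is unknown and no counting interval is given.

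Here log2(TPM + 1) was computed for the 13956 genes with at least 1 TPM in at least 2 libraries, which makes fold changes of low genes too small. limma 3.58.1 in R 4.3.3 fitted 6 group means with a trend in the variance, and 9 comparisons were tested two-sided, with Benjamini-Hochberg adjustment over all genes tested. A gene at 0 throughout a group is described as listed at 0, with no fold change. Sequences came from GENCODE 29 transcripts and RefSeq promoters. Plots used Python 3.11.15 and matplotlib 3.10.9.

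The members and lists were chosen with earlier results of these data known. Named were members past the threshold in any comparison, the 3 of highest mean TPM per class, those next to the filter, and up to 3 genes of smallest p among the calls of each other list. HIST1H2AH, HIST1H2AK, HIST1H4C, HIST1H2BE, SLBP and the markers named were chosen after their values were seen. One marker of the immune list is not reported here. Alternatives were the pseudocount, filter, scaling, replicate block, each line fitted alone and each library left out.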

Additional observations from a re-analysis of the deposited data

Results flagged for a closer look

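HIST1H2BN was the 1 histone gene whose H2O2 change differed between the lines by a test of the difference itself. The change in HCT116 minus that in MDA-MB-231 was 2.19 on the log2(TPM + 1) scale (limma, adjusted p = 0.0229). HCT116 had 2.58 and 0.41 TPM under H2O2 and 0.73 and 0 TPM under IgG, which overlapped. MDA-MB-231 had 0.33 and 0.36 TPM under H2O2 and 1.72 and 3.77 TPM under IgG, which did not. With 1 library left out in turn, the difference ran from 1.52 to 2.87, and 5 of 12 omissions ended the call.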

How the results depend on the processing

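Leaving out each of the 12 libraries in turn gave 1 to 5 members called for H2O2 against IgG in HCT116 and 0 to 1 in MDA-MB-231. It gave 0 to 4 in HCT116 and 0 to 0 in MDA-MB-231 for the antibody with H2O2 against IgG, 0 to 2 for the difference of the H2O2 change and 17 to 23 for the lines. A lone library was then assumed to vary like the other groups. For H2O2 against IgG the ratio of summed TPM ran from 0.850 to 1.03 in HCT116 and 0.861 to 0.898 in MDA-MB-231. For the antibody with H2O2 against H2O2 it ran from 0.817 to 0.996 in HCT116 and 0.983 to 0.997 in MDA-MB-231, and against IgG from 0.767 to 0.927 in HCT116 and 0.852 to 0.889 in MDA-MB-231. With no filter, 1 member was called for H2O2 in either line and 1 for the antibody with H2O2 against IgG in MDA-MB-231; in MDA-MB-231 this was HIST1H2BE, a row under the filter. With a mean of at least 5 TPM required, 6 members were left, of which 1 was called for H2O2 in HCT116, 0 for the difference and 6 for the lines. With each line fitted alone, 0 were called for H2O2 and 1 for the antibody with H2O2 against IgG in HCT116. Median-of-ratios scaling gave 1 for H2O2 in MDA-MB-231 and a ratio of 1.01 in place of 0.990 for the antibody with H2O2 against H2O2 there. Differences between replicate 1 and 2 correlated weakly across genes between groups, at -0.13 to 0.16. Whether the replicate numbers mark sets of libraries handled together cannot be settled by such correlations. A replicate block gave 6 calls for the antibody with H2O2 against IgG in HCT116, 3 for the difference of the H2O2 change, and counts within 1.5 times of those reported elsewhere. With the antibody against H2O2, omissions turned the sign of values that were no calls: HIST1H2BK ran from -0.083 to 0.013 in HCT116 and from -0.063 to 0.0089 in MDA-MB-231, and HIST1H2BD from -0.23 to 0.031 in MDA-MB-231. Over 15 counts and ratios, 173 alternative values stayed close to the reported value and 28 moved. Close meant within 1.5 times for a count, or still 0 where it was 0. For a ratio it meant within 1 SD, taken from the spread of its groups, so a close ratio could still cross 1. Most members lie at a few TPM, where 1 library decides a value, and without depth the counting error behind these values is unknown.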
